A study of Mus musculus with 4 samples.

Results

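The genes of the transforming growth factor beta (TGF-beta) pathway described here were Tgfb1, Nrros, Tgfbr1, Tgfbr2, Smad2, Smad4, Smad7, Ski and Skil, that is 9 of the 32285 genes counted in every matrix. They were taken by symbol, as a ligand, the protein that holds it at the cell surface, its receptors, its SMAD proteins and the inhibitors of the pathway, and not by their values in these cells. The cells were live CD45+ cells of the thalamus and of the hippocampus (HPC) of C57B6/J mice with a cortical brain injury, taken from the injured hemisphere and their RNA was counted cell by cell in droplets (scRNA-seq). CD45 marks all leukocytes and, at a lower level, microglia. Each region was represented by 4 sets of cells, each set marked with its own Cell Multiplexing Oligo, a DNA tag that lets pooled cells be told apart. The methods describe a pool of 4 mice per region, and each set was therefore treated as 1 mouse, although the labels do not say so. All mice were injured, so that no comparison with uninjured tissue could be made, and the labels give neither age nor time after injury. Each region was 1 library of its own, and region and library cannot be told apart.

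TGF-beta1 is made as a latent complex that must be anchored and activated before it can bind a receptor. The active ligand binds the type II receptor TGFBR2, which recruits and phosphorylates the type I receptor TGFBR1. This in turn phosphorylates SMAD2 and SMAD3, which enter the nucleus with SMAD4. SMAD7 blocks the activated receptor, and the corepressors SKI and SNON (encoded by Skil) bind the SMAD complex on chromatin and hold its targets down. In the adult brain the pathway is known for keeping microglia, the resident macrophages of the tissue, in their homeostatic state, and NRROS (also called LRRC33) is the milieu molecule that tethers latent TGF-beta1 to the surface of microglia and other myeloid cells.

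By the annotation of the GRCm38 genome, Tgfb1 lies on chromosome 7 at 25687002 to 25705077 (plus strand), Nrros on chromosome 16 at 32142785 to 32165594 (minus), Tgfbr1 on chromosome 4 at 47353222 to 47414931 (plus) and Tgfbr2 on chromosome 9 at 116084293 to 116175360 (minus). Ski lies on chromosome 4 at 155154075 to 155222592 (minus) and Skil on chromosome 3 at 31095058 to 31122577 (plus). The promoters of the receptors and of Nrros are shown because the differences between microglial states described below concern these genes, which did not change together. They are the 250 bases before and the 50 bases after the start in RefSeq (GRCm38.p6), written 5′ to 3′ on the strand of the gene, with each CpG step, the site of DNA methylation, in capitals. The windows are chr4:47352972-47353271 (plus) for Tgfbr1, chr9:116175314-116175613 (minus) for Tgfbr2 and chr16:32165545-32165844 (minus) for Nrros.
Tgfbr1: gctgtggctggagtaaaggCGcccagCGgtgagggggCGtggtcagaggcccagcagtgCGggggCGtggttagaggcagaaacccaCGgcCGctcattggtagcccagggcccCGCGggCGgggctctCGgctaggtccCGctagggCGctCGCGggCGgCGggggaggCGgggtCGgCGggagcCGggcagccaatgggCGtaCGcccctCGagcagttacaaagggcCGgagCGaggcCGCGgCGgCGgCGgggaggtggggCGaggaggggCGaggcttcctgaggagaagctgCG
Tgfbr2: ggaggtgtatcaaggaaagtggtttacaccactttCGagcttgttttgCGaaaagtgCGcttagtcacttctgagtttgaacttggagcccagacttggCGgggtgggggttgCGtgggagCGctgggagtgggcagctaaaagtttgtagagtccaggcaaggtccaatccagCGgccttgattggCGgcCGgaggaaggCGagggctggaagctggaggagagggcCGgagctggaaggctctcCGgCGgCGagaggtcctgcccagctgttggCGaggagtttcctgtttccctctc
Nrros: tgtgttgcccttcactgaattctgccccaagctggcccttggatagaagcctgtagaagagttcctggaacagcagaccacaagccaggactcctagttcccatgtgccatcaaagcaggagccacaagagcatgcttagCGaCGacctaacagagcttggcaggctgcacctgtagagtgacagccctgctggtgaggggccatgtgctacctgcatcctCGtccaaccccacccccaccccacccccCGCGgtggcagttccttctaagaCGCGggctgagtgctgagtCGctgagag

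The Tgfbr1 window held 34 CpG steps, more than 92.3% of the 32851 promoter windows of the same length, whose median was 7. The Tgfbr2 window held 15 (65.4th percentile) and the Nrros window 8 (51.4th percentile). Among the other genes with an entry, Tgfb1 held 30 and Ski 59, and a second start of Tgfbr1 held 3. The PU.1-type motif GAGGAAGT, searched on both strands, was in 3.2% of all windows, and the SMAD palindrome GTCTAGAC in 0.213%. Neither was in any of the 6 windows of the 5 genes that had entries, which says only that these letters were not in these windows.

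Of 29190 cells, 24939 passed the limits of the study on detected genes (200 to 7500) and on the mitochondrial share (2%). The sets held 2072 to 5389 of these cells and 9789875 to 26636526 UMIs (molecules counted once by their unique identifier), with a median of 4261.5 to 4657 UMIs per cell. Cells were put into classes by fixed lists of marker genes that hold none of the 9 genes, which gave 19315 microglia-like, 2899 T-like, 836 neutrophil-like, 250 monocyte-like, 138 border macrophage-like, 129 NK-like, 104 dendritic-like and 80 B-like cells, and left 1188 without a class. Of the microglia-like cells, 11106 were homeostatic-like, 2607 were like disease-associated microglia (DAM-like) and 4588 lay between them, with 542, 356 and 116 in an MHC class II, an interferon and a cycling state. These states are ranges of a score, not types, and 4265 cells lay within 0.1 of the homeostatic limit and 881 within 0.1 of the DAM limit. HPC set 1 stood apart from the other HPC sets. DAM-like cells made up 6.74% of its microglia-like cells, against 1.12% to 2.20% in the other HPC sets and 18.7% to 41.0% in the thalamus sets. Over all kept cells the totals of the genes ran from 9975 UMIs for Smad4 to 211729 for Tgfbr1.

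Of the 9 genes, Tgfbr1 had the widest relative gap in mean level between microglia-like cells and the next class. Its level was 21.3 ± 3.63 UMIs per 10,000 in microglia-like cells (mean ± SD, n = 8 sets), 7.51 ± 1.60 in border macrophage-like cells (n = 4) and 5.20 ± 1.43 in neutrophil-like cells (n = 6). Monocyte-like cells were at 2.45 ± 0.59 (n = 4), dendritic-like cells at 1.85 ± 0.52 (n = 3) and T-like cells at 1.69 ± 0.99 (n = 8). A class level rests here on sets with at least 20 cells of the class. Microglia-like cells were above border macrophage-like cells in 4 of 4 sets, by 1.40 on the log2 scale, and 4 paired sets cannot give an exact permutation p below 0.125. At least 1 Tgfbr1 UMI was found in 95.3% of microglia-like and 30.04% of T-like cells, or in 91.9% and 18.9% once every cell was thinned to 2000 UMIs. T cells should lack most of the microglial markers, so the sum of these is a rough guide to the background. Any marker that T cells do express would raise it. The summed microglial markers in T-like cells were 4.32% to 7.98% of their level in microglia-like cells. Tgfbr1 in T-like cells was 15.5%, 6.06%, 14.7% and 3.39% of its microglial level in HPC sets 1 to 4, and 9.89%, 7.004%, 3.43% and 5.27% in thalamus sets 1 to 4. It was at or below the marker share of the same set in HPC set 4 and thalamus sets 3 and 4, and above it in the other 5 sets.

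Tgfbr2, the ligand-binding receptor, had a flatter pattern. It was at 6.31 ± 0.35 UMIs per 10,000 in microglia-like, 4.37 ± 0.44 in border macrophage-like and 3.66 ± 0.42 in T-like cells. Neutrophil-like cells were at 1.96 ± 0.56, monocyte-like cells at 1.05 ± 0.17 and dendritic-like cells at 0.779 ± 0.138. T-like cells thus had 57.9% of the microglial level of Tgfbr2, where the microglial markers were at most 7.98%. T-like cells were above neutrophil-like cells in 6 of 6 sets.

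The ligand and its anchor did not share the pattern of the receptors. Tgfb1 was highest in monocyte-like cells, at 3.84 ± 1.64 UMIs per 10,000, with microglia-like cells at 2.64 ± 0.27 and border macrophage-like cells at 1.97 ± 0.77. Dendritic-like cells were at 1.45 ± 0.40, T-like cells at 1.40 ± 0.09 and neutrophil-like cells at 1.198 ± 0.469. Nrros was found in every myeloid class and was low in lymphocytes. Border macrophage-like cells had 3.71 ± 0.46, neutrophil-like cells 2.75 ± 0.60 and microglia-like cells 2.38 ± 0.20, whereas T-like cells had 0.519 ± 0.099.

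The SMAD mediators varied least between classes. Smad2, a receptor-activated SMAD, ran from 0.644 UMIs per 10,000 in T-like to 1.04 ± 0.42 in neutrophil-like cells, with microglia-like cells at 0.961 ± 0.071. Smad4, the common partner, ran from 0.758 in border macrophage-like to 1.43 ± 0.74 in dendritic-like cells, and was at 0.819 in microglia-like and 0.821 in T-like cells. The inhibitors spread more widely. Smad7 was at 2.78 ± 0.22 in microglia-like cells, 1.65 in neutrophil-like and 1.60 in T-like cells, and between 0.508 and 0.953 in the other 3 classes. Ski was at 2.71 ± 0.23 in microglia-like and 2.299 in neutrophil-like cells and at 0.465 in dendritic-like cells. Skil was highest in neutrophil-like cells at 3.24 ± 0.96, with microglia-like cells at 2.39 ± 0.093 and T-like cells at 1.09.

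**Figure D1:**
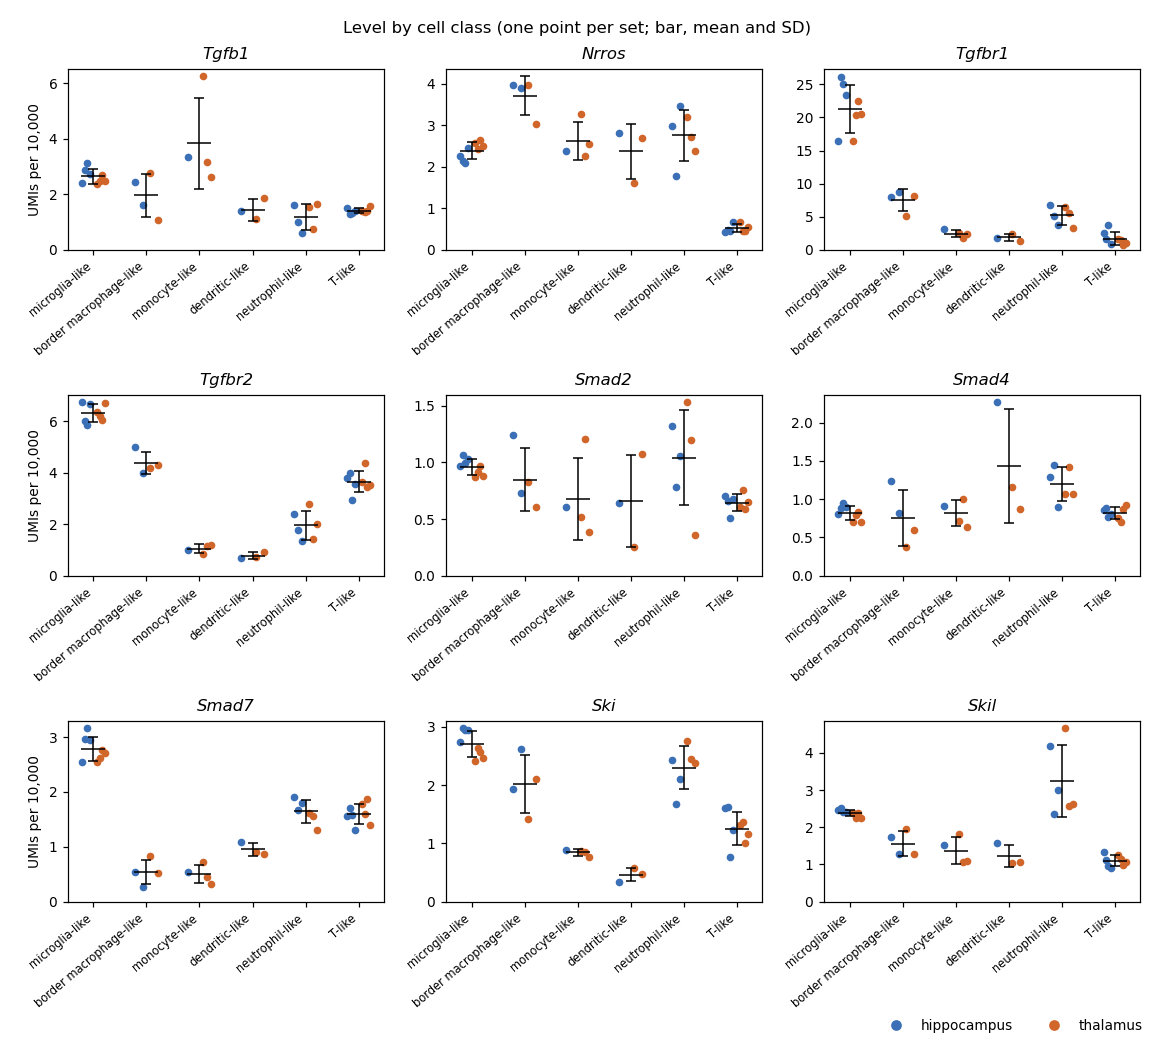
Levels of the 9 genes in UMIs per 10,000 (vertical axis) by cell class (horizontal axis), with a point for each set and a black bar for the mean and SD. Tgfbr1 lies near 21.3 in microglia-like cells and at or below 7.51 in the mean of the other 5 classes shown, while the class means of Smad2 and Smad4 lie within 0.644 to 1.43.

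The order of neighbouring classes was tested within sets for 45 pairs. None passed after Benjamini-Hochberg adjustment (exact two-sided sign-flip permutation test, lowest adjusted p = 0.402), and 3 had the smallest exact p that 6 sets allow, 0.03125. These were Tgfbr2 in T-like over neutrophil-like cells, Smad4 in neutrophil-like over T-like cells and Smad7 in microglia-like over neutrophil-like cells, each in 6 of 6 sets. With 3 to 6 sets for most classes, the exact p-values could not become small enough for any of the 45 pairs to pass this adjustment. The test therefore cannot decide the order, and no order of neighbouring classes was established.

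Genes whose levels followed those of a pathway gene most closely were ranked over the 35 set-by-class values. For Tgfbr1 they were Inpp5d (Pearson r = 0.948), P2ry12, the purinergic receptor of homeostatic microglia (r = 0.948), and Zfhx3 (r = 0.941). For Nrros they included App (r = 0.960) and Skap2 (r = 0.926), and for Smad7 the first was Selplg (r = 0.910), a selectin ligand that is also a microglial marker. The first for Skil was Irak2 (r = 0.930), for Ski Vsir (r = 0.897), for Tgfbr2 Ulk2 (r = 0.895) and for Tgfb1 Zfyve9 (r = 0.832). Smad2 and Smad4 had no close companion, the best being Gnpda1 (r = 0.785) and Stat3 (r = 0.704). P2ry12 and Selplg are on the marker list that defined microglia-like cells, so their high level in that class was set in part by the list. The values share sets, libraries and classes, and the correlations are given as a description.

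Within microglia, Tgfbr1, Skil, Smad7, Smad2 and Smad4 were lower in DAM-like than in homeostatic-like cells. Counts were summed per set and state, and the states were compared within sets (edgeR quasi-likelihood test, adjusted over 12243 genes). The test called 7 of the 9 genes, these 5 lower and 2 higher (Tgfbr2 and Nrros), the latter 2 under the scaling of this fit but not under library-size scaling. The states differ broadly, and 47.3% of all genes tested were called, 25.2% higher and 22.1% lower. The state limits used other genes of the same cells.

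Tgfbr1 was at 18.7, 27.7, 25.6 and 25.1 UMIs per 10,000 in homeostatic-like cells of HPC sets 1 to 4 and at 22.8, 27.4, 26.2 and 26.0 in thalamus sets 1 to 4. In DAM-like cells it was at 14.2, 12.1, 19.2 and 16.8 in the HPC sets and at 13.9, 15.0, 17.5 and 16.1 in the thalamus sets. Every set was lower in the DAM-like state, although the DAM-like value of HPC set 3 exceeded the homeostatic-like value of HPC set 1. The means were 24.9 ± 2.95, 18.04 ± 1.65 and 15.6 ± 2.27 in homeostatic-like, intermediate and DAM-like cells (SD, n = 8), and the fitted difference was -0.44 on the log2 scale (SE 0.08, adjusted p = 1.07e-05).

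Skil fell by 0.39 on the log2 scale (SE 0.07, adjusted p = 7.72e-06). It was at 2.64, 2.56, 2.44 and 2.44 UMIs per 10,000 in homeostatic-like cells of HPC sets 1 to 4 and at 3.06, 2.76, 2.77 and 2.77 in those of the thalamus. In DAM-like cells the HPC sets had 1.76, 1.28, 1.72 and 2.05 and the thalamus sets 1.93, 1.77, 1.71 and 1.70. The levels of the states did not overlap. Skil encodes a corepressor that the pathway itself removes by SMAD-directed degradation and restores as a target gene.

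Smad7, the feedback inhibitor, fell by 0.33 on the log2 scale (SE 0.07, adjusted p = 0.000104). Its levels in homeostatic-like cells were 2.87, 3.09, 3.20 and 3.07 in the HPC sets and 3.26, 3.02, 3.10 and 3.15 in the thalamus sets. In DAM-like cells they were 1.85, 1.69, 3.28 and 1.79 in the HPC sets and 2.10, 2.09, 2.09 and 2.21 (set 4) in the thalamus sets. Smad7 was lower in 7 of 8 sets, and the exception, HPC set 3, rests on 22 DAM-like cells and 40 Smad7 UMIs. Smad2 (-0.28, SE 0.08, adjusted p = 0.00595) and Smad4 (-0.21, SE 0.08, adjusted p = 0.0374) were lower in 8 of 8 sets. Smad2 went from 1.07 ± 0.06 to 0.694 ± 0.19 UMIs per 10,000, with no overlap, and Smad4 from 0.894 ± 0.059 to 0.676 ± 0.127.

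Ski and Tgfb1 did not pass the test (log2 difference -0.14, adjusted p = 0.0590, and -0.13, adjusted p = 0.0991, edgeR). Their share of all UMIs was lower in DAM-like cells in 8 of 8 sets and did not overlap between the states. Ski was at 2.92 ± 0.13 UMIs per 10,000 in homeostatic-like and 2.23 ± 0.14 in DAM-like cells, and Tgfb1 at 2.92 ± 0.16 and 2.21 ± 0.21. On this scale, 6 of the 9 genes were lower in all 8 sets, as were 26.7% of all genes tested. The share of all genes without overlap between the states was not counted. The lack of overlap given here and for Skil and Smad2 therefore has no background to be read against. The scales differ between the states. The 14 genes of the DAM list summed to 637 to 889 UMIs per 10,000 there and to 36.4 to 199 in homeostatic-like cells. The trimmed-mean (TMM) scaling of the fit set the median of all genes at -0.01 on the log2 scale, and scaling by library size set it at -0.28.

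Tgfbr2 and Nrros were the exceptions, and their direction depended on this scaling and on the Malat1-poor cells described below. Tgfbr2 was at 7.11, 6.01, 5.84 and 6.52 UMIs per 10,000 in homeostatic-like cells of HPC sets 1 to 4 and at 6.35, 6.20, 5.69 and 6.60 in those of the thalamus. In DAM-like cells it was at 5.47, 4.92, 6.23 and 6.83 in the HPC and at 6.23, 6.37, 6.78 and 6.59 in the thalamus. It was lower in the DAM-like state in 4 of 8 sets and the levels overlapped. The fitted difference was 0.21 (SE 0.07, adjusted p = 0.0120, edgeR) under TMM scaling and -0.031 under library-size scaling, and 0.22 and 0.24 relative to the median of all genes.

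Nrros was at 2.27, 2.16, 2.06 and 2.47 UMIs per 10,000 in homeostatic-like cells of the HPC sets and at 2.79, 2.72, 2.70 and 2.74 in those of the thalamus sets. In DAM-like cells it was at 2.16, 2.57, 2.54 and 2.21 in the HPC and at 2.49, 2.303, 2.68 and 2.24 in the thalamus, with overlap throughout. The difference was 0.16 (SE 0.06, adjusted p = 0.0465, edgeR) under TMM and -0.10 under library-size scaling, and 0.17 relative to the median of all genes under both. The call for Nrros was lost in 11 of 16 alternatives, among them those without each HPC set and without thalamus sets 1 or 3. That for Tgfbr2 was lost in 4, namely library-size scaling and the fits without HPC set 4 and without thalamus sets 1 or 3. The call for Smad4 was lost in 5, among them the fits without thalamus sets 3 or 4, and that for Smad2 in 2, whereas those for Tgfbr1, Skil and Smad7 held in all 16. Ski passed in 11 and Tgfb1 in 7. Over the 16, adjusted p ran up to 0.000243 for Tgfbr1, 0.000280 for Skil and 0.000557 for Smad7, and up to 0.698 for Tgfbr2 and 0.581 for Nrros. Relative to the median of all genes, the 16 alternatives gave -0.48 to -0.35 for Tgfbr1, 0.17 to 0.29 for Tgfbr2 and 0.10 to 0.22 for Nrros.

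**Figure D2:**
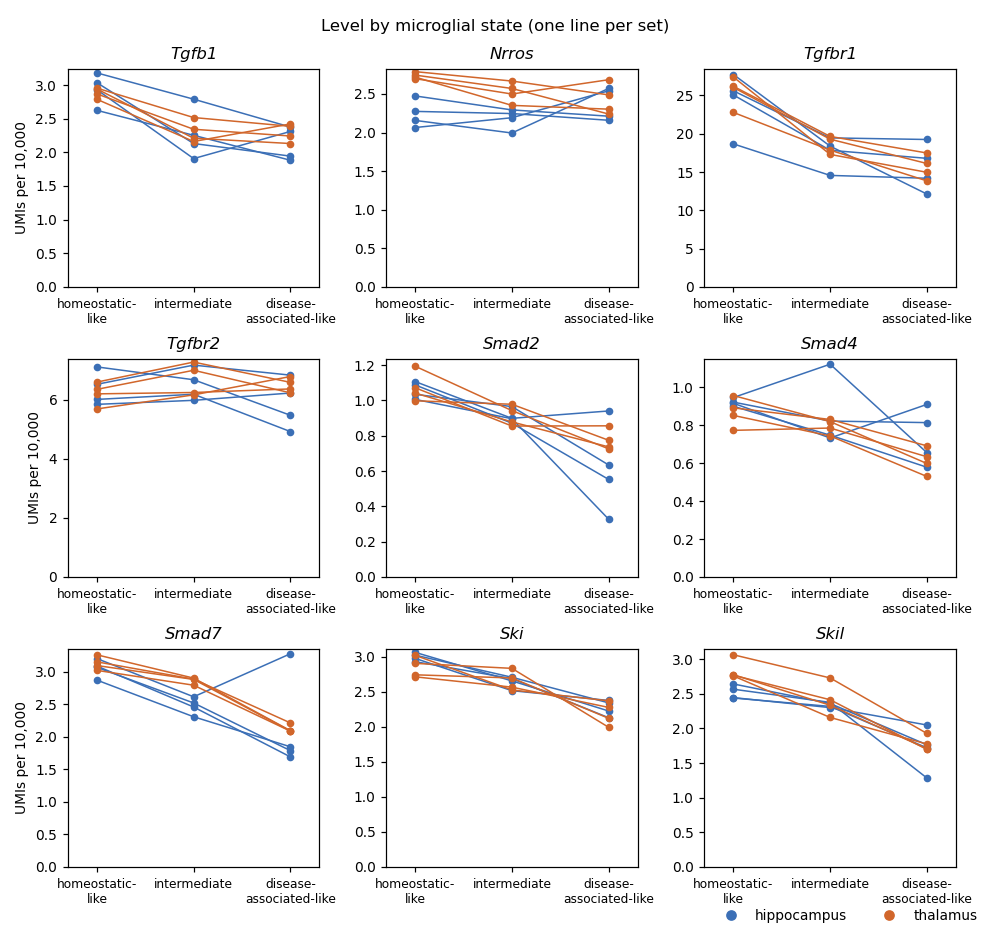
Levels of the 9 genes in UMIs per 10,000 (vertical axis) in homeostatic-like, intermediate and DAM-like microglia (horizontal axis), with a line for each of the 8 sets. The Tgfbr1 lines fall from a mean of 24.9 to 15.6 in every set, and those of Tgfbr2 rise in some sets and fall in others.

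A group of cells that were poor in the nuclear RNA Malat1 moved with the states. Cells with under 40 Malat1 UMIs per 10,000 were 670 of 2607 DAM-like cells (25.7%), 102 of 4588 intermediate cells (2.22%) and 8 of 11106 homeostatic-like cells (0.0720%). In the DAM-like cells they had a median of 2212 UMIs, against 6438 in the other DAM-like cells. Tgfbr1 was at 2.13 UMIs per 10,000 in the Malat1-poor and 16.9 in the other DAM-like cells, and at least 1 Tgfbr1 UMI was found in 35.2% and 98.1% of them. In the 5 sets with at least 20 such cells, Tgfbr1 ranged from 1.43 to 3.06 in the Malat1-poor and from 15.9 to 19.5 in the other DAM-like cells. The gap differed between the genes. Nrros was at 0.126 to 0.377 against 2.42 to 3.01 and Smad7 at 0.277 to 0.379 against 2.06 to 2.42, with no overlap, whereas Tgfb1 was at 1.43 to 2.36 against 1.94 to 2.43. Without all Malat1-poor cells, Tgfbr1 was still lower in DAM-like cells in 8 of 8 sets (16.9 against 24.9 UMIs per 10,000). HPC set 3 then fell below 20 DAM-like cells and was left out of the fit, in which the log2 difference was -0.40 (adjusted p = 0.000243, edgeR, 7 sets). Skil (-0.35, adjusted p = 8.08e-05), Smad7 (-0.29, adjusted p = 0.000443) and Smad2 (-0.20, adjusted p = 0.0362) also stayed lower, Smad4 did not pass (adjusted p = 0.163), and Tgfb1 passed (-0.17, adjusted p = 0.0290). Tgfbr2 (0.26, adjusted p = 0.00480) and Nrros (0.21, adjusted p = 0.0115) stayed higher under TMM scaling. As a share of UMIs, without these cells, Tgfbr2 was lower in the DAM-like state in 2 of 8 sets (means 6.66 in DAM-like and 6.29 in homeostatic-like cells) and Nrros in 3 of 8 (2.62 and 2.49).

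In the smaller states Tgfbr1 was also low, at 14.7 ± 4.45 UMIs per 10,000 in the MHC class II and 14.9 ± 2.29 in the interferon state (SD, n = 8). Tgfbr2 was at 4.95 ± 1.503 and 6.32 ± 0.69 there, and Skil at 1.74 ± 0.38 and 2.54 ± 0.60. These states were not tested.

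The other genes of the pathway were taken from a list of 61 that covered ligands, latency and activation, receptors, SMAD proteins, corepressors, turnover and adaptor proteins, feedback targets and TGF-beta-dependent genes of microglia. Between the states, 34 of the 50 tested were called, 13 higher and 21 lower in DAM-like cells, against 47.3% of all genes (25.2% higher, 22.1% lower). Lower calls led among turnover and adaptor proteins (7 of 14, with 2 higher), other receptors (4 of 8, with 1 higher) and other SMAD proteins (2 of 4, none higher). They led by less among other corepressors (2 of 4, with 1 higher) and TGF-beta-dependent genes of microglia (3 of 7, with 2 higher). Higher calls led among other latency and activation genes (2 of 5, with 1 lower), and the 1 other ligand tested was higher. Other feedback targets had 4 higher and 2 lower of 7. With Smad7 and Skil, which are also on that list, the feedback targets had 4 higher and 4 lower of 9. Id2, an inhibitor of differentiation whose gene responds to BMP and TGF-beta signals, rose by 1.57 on the log2 scale (SE 0.10, adjusted p = 3.23e-15), from 0.357 to 0.663 up to 0.901 to 1.56 UMIs per 10,000. Sall1, the transcription factor of microglial identity, fell by 1.04 (SE 0.07, adjusted p = 1.46e-14), from 3.13 to 3.59 down to 1.07 to 1.82. The coreceptor Eng (-1.33, adjusted p = 1.06e-12), the activin receptor Acvr2b (-1.40, adjusted p = 7.27e-11) and the TAK1 adaptor Tab2 (-0.66, adjusted p = 1.46e-09) were lower. Each of these 5 moved the same way in 8 of 8 sets. They were named for the lowest adjusted p of this same fit, so this adds no support. Of all genes tested, 26.7% were lower in every set.

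Between the regions, few of the 9 genes were called, and a gene that was not called may still differ. In all microglia-like cells 1 of 9 was called in thalamus against HPC, where 14% of the 13018 genes tested were called (9.08% higher, 4.9% lower). This was Nrros, at 2.25, 2.15, 2.08 and 2.44 UMIs per 10,000 in HPC sets 1 to 4 and at 2.58, 2.43, 2.65 and 2.49 in thalamus sets 1 to 4. Only thalamus set 2 and HPC set 4 overlapped. The log2 difference was 0.26 (SE 0.07, adjusted p = 0.0324, edgeR). The call was lost without HPC sets 2 or 3 and without thalamus sets 1, 3 or 4, and with library-size scaling (adjusted p = 0.0650). With same-numbered sets as replicate blocks the adjusted p was 0.00373, and over the 16 alternatives it ran from 0.00373 to 0.1001.

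Ski was lower in the thalamus without passing the test (-0.14, SE 0.04, adjusted p = 0.0567, edgeR). It was at 2.75, 2.98, 2.94 and 2.94 UMIs per 10,000 in the HPC sets and at 2.41, 2.63, 2.57 and 2.46 in the thalamus sets, with no overlap. In the fit with replicate blocks it passed (adjusted p = 0.0192), as did Smad4 (adjusted p = 0.0273, against 0.106 without blocks). Over the 16 alternatives adjusted p ran from 0.00635 to 0.153 for Ski and from 0.0273 to 0.247 for Smad4. Skil and Smad2 also had lower levels in every thalamus set than in any HPC set, so that 3 of 9 genes did not overlap, where 21.3% of all genes did not and 12.9% were lower in the thalamus in this way. That held for levels as a share of UMIs, and the fitted difference was -0.01 for Skil (SE 0.05, adjusted p = 0.906, edgeR) and -0.10 for Smad2 (SE 0.04, adjusted p = 0.177). Tgfbr1 ran from 16.4 to 26.1 in the HPC and from 16.4 to 22.4 in the thalamus (log2 difference -0.12, SE 0.13, adjusted p = 0.583). This value depended on single sets, and was -0.23 without HPC set 1 (adjusted p = 0.0893, edgeR), -0.05 without HPC set 2 and -0.05 without thalamus set 1, with adjusted p from 0.0893 to 0.862 over the 16 alternatives. The makeup of microglia differed between the regions as well. Malat1-poor cells made up 0.255% to 2.66% of microglia-like cells in the HPC sets and 6.14% to 17.6% in the thalamus sets. In Malat1-poor against other DAM-like cells, Ski was at 0.556 against 2.35, Skil at 0.433 against 1.98 and Smad2 at 0.170 against 0.819. The part of these cells in the lack of overlap was not tested. The DAM list summed to 53.7 to 327 UMIs per 10,000 in the HPC sets and 247 to 513 in the thalamus sets, and the comparisons within a state follow.

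Within homeostatic-like microglia none of the 9 genes was called, where 1.31% of 12052 genes were (unadjusted p under 0.05 for Nrros and Skil, and 1 of 9 called with DESeq2). Nrros had the levels given above for these cells, from 2.06 to 2.47 in the HPC and from 2.70 to 2.79 in the thalamus. The groups did not overlap, and the log2 difference was 0.28 (SE 0.06, adjusted p = 0.0532, edgeR), which passed in 6 of 15 alternatives, among them library-size scaling (adjusted p = 0.0351) and replicate blocks (adjusted p = 0.00321), with a range of 0.00321 to 0.150. Skil was higher in the thalamus too, from 2.76 to 3.06 against 2.44 to 2.64 (0.16, SE 0.06, adjusted p = 0.232). It passed with replicate blocks (adjusted p = 0.0486) and without HPC set 1 (adjusted p = 0.0343), with a range of 0.0343 to 0.415 over the 15 alternatives. These 2 of 9 genes did not overlap between the regions, where 9.35% of all genes did not and 5.41% were higher in the thalamus in this way. The immediate early genes, a list chosen after the data had been seen, summed to 48.7 to 58.9 UMIs per 10,000 in homeostatic-like cells of the HPC and to 66.4 to 83.8 in those of the thalamus, and their part in the difference was not tested.

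Within DAM-like microglia 0 of 9 genes were called (edgeR, 1.6% of 9759 genes, and 0 had an unadjusted p under 0.05 or a DESeq2 call). The log2 differences ran from -0.19 for Smad4 to 0.21 for Smad2, every adjusted p was at least 0.598, and 0 of 9 were free of overlap (7.83% of all genes). The HPC sets had only 238, 55, 22 and 46 DAM-like cells, against 339 to 972 in the thalamus sets. In T-like cells 0 of 9 were called (edgeR, 0.12% of 9159 genes, and 0 had an unadjusted p under 0.05) and 0 were free of overlap (4.79%). DESeq2 made no call there either, but gave no adjusted p for most of the 9 genes. Tgfbr1 had the widest gap there, at 2.55, 1.58, 3.68 and 0.794 in the HPC sets and 1.62, 1.43, 0.769 and 1.08 in the thalamus sets (log2 difference -0.65, SE 0.31, adjusted p = 0.797, edgeR). The share of microglial markers in these cells is given above.

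**Figure D3:**
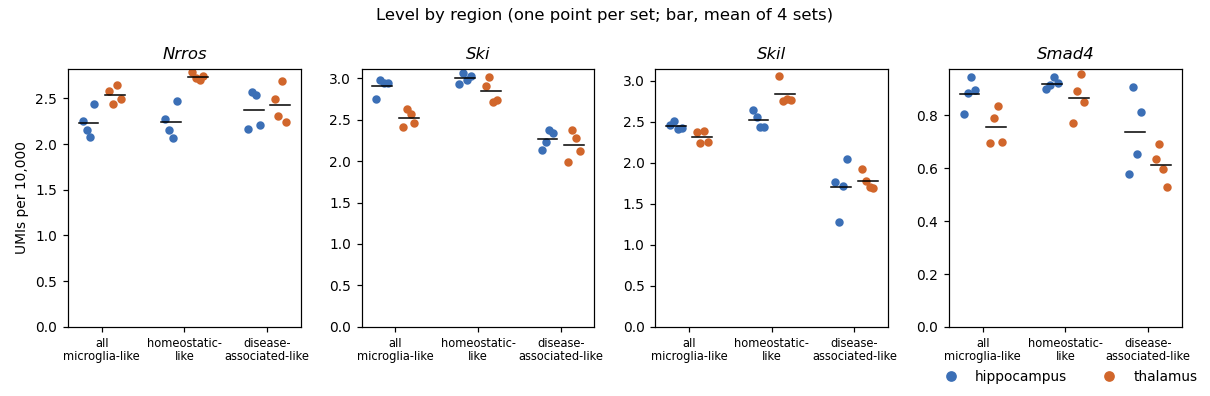
Levels of Nrros, Ski, Skil and Smad4 in UMIs per 10,000 (vertical axis) in HPC and thalamus sets (points, with bars for the mean) for all microglia-like, homeostatic-like and DAM-like cells. Nrros in homeostatic-like cells lies at 2.06 to 2.47 in the HPC and 2.70 to 2.79 in the thalamus, and the DAM-like points of the regions overlap for each gene.

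The effect of state was also compared between the regions. None of the 9 genes was called for this difference (edgeR, with 1 unadjusted p under 0.05), where 0.384% of 12243 genes were. DESeq2 made no call either, but gave no adjusted p for most of the 9 genes. Tgfbr2 came nearest, with a state effect higher in the thalamus by 0.32 on the log2 scale (SE 0.12, unadjusted p = 0.0138, adjusted p = 0.452, edgeR). Among the other genes of the pathway, 10 of 50 were called between the regions in microglia-like cells, 7 higher and 3 lower in the thalamus, where 14% of all genes were called (9.08% higher, 4.9% lower). The pseudoreceptor Bambi, which lacks a kinase and dampens TGF-beta signals, went from 0.0187 to 0.0273 UMIs per 10,000 in the HPC to 0.0486 to 0.0612 in the thalamus (log2 difference 1.39, adjusted p = 0.00148). Within homeostatic-like cells its levels overlapped, at 0.0119 to 0.0259 in the HPC and 0.00930 to 0.0275 in the thalamus. DAM-like cells overlapped as well, at 0 to 0.328 in the HPC and 0.0811 to 0.146 in the thalamus. The endothelial-type receptor Acvrl1 went from 0.187 to 0.218 up to 0.253 to 0.299 (0.53, adjusted p = 0.00573) and the receptor-binding immunophilin Fkbp1a from 0.502 to 0.623 up to 0.632 to 0.702 (0.31, adjusted p = 0.00760). Tgfb2 was higher (1.296, adjusted p = 0.0154) at levels of at most 0.0148, and the corepressor Tgif2 was lower (-0.59, adjusted p = 0.0169). Acvrl1 was also the only call of 48 within homeostatic-like cells (0.44, adjusted p = 0.0242, edgeR), where 1.31% of all genes were called. It was lost in 7 of 15 alternatives, namely without HPC sets 2, 3 or 4 and without any 1 of the thalamus sets (adjusted p up to 0.0919). In T-like cells 0 of 39 were called (edgeR, 3 with an unadjusted p under 0.05, 0.12% of all genes), and within DAM-like cells 2 of 46 (1.6% of all genes). The TGF-beta-dependent gene Fcrls, an Fc receptor-like gene of microglia, was at 9.61, 8.62, 6.14 and 7.48 UMIs per 10,000 in the HPC sets and at 17.8, 13.4, 17.8 and 14.4 in the thalamus sets (0.94, adjusted p = 0.00104, edgeR), with no overlap. Tgfbi, the TGF-beta-induced matrix protein, was lower in the thalamus in the fit (-1.37, adjusted p = 0.0483), with levels of 0 to 1.254 in the HPC and 0.211 to 0.523 in the thalamus that overlapped. Its call held in 5 of 14 alternatives. It was lost with library-size scaling (adjusted p = 0.0512), without Malat1-poor cells, without the top 5% of cells by UMIs, without HPC sets 1, 2 or 4 and without thalamus sets 1, 3 or 4, with adjusted p up to 0.280.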

How the data were processed

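CD45+ cells of the thalamus and the HPC were counted in 8 matrices, 4 per region. The authors deposited raw UMI counts per gene and cell, made with Cell Ranger (7.1.0 per the file headers, whereas the methods name an earlier version) on mm10 (GRCm38). Whether intronic reads were counted is not given in the sources used here. No normalization had been applied, and Cell Multiplexing Oligo rows were left out here.

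Cells with 200 to 7500 genes and at most 2% mitochondrial counts were kept. Classes were assigned by marker lists. Microglia-like cells needed at least 100 marker UMIs per 10,000, and other classes 3 or 4 detected markers. The 805 cells that passed more than 1 limit and the 383 that passed none had no class. DAM-like cells had a score (mean of the natural log of 1 + UMIs per 10,000 over the list) of at least 1.2 for the DAM list, and homeostatic-like cells one of at most 0.8 with a homeostatic score of at least 1.5. Tags remove doublets between sets only, no doublet caller was run, and leaving out the top 5% of cells by UMIs was an alternative. Barcodes shared within a region numbered 0, and 49 were shared across the regions.

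Cells were not treated as replicates. Counts were summed per set, and sums of at least 20 cells were tested with edgeR 4.0.16 (quasi-likelihood F-test, TMM, filterByExpr, R 4.3.3) over all genes, with Benjamini-Hochberg adjusted p under 0.05 as called. SEs are those of the log2 difference. The state comparison had the set as a block. Alternatives were DESeq2 1.42.0, no filter, a mitochondrial limit of 5%, replicate blocks, Leiden clusters (scanpy 1.11.5), stricter state limits, cells thinned to 2000 UMIs, no Malat1-poor cells, leaving out each set, and library-size scaling, which was added after the data had been seen. With n of 4 per region, p-values measure the spread between sets. Same-numbered sets of the regions deviated together (correlations 0.511, 0.143, 0.481 and 0.163 over genes) and were taken as paired by the rule that each exceed 0.1. Differently numbered sets had correlations of -0.480 to 0.145. The highest of these, HPC set 2 with thalamus set 3, exceeded 0.1 and also the 0.143 of the sets numbered 2. The rule therefore does not separate same-numbered pairs from all others. The main comparisons of the regions were run without this pairing, which entered only as replicate blocks among the alternatives. Intervals and shares cover counting error only. The scripts were tested on simulated data. Of genes changed there by 0.3 on the log2 scale, the tests of regions recovered 5.1% in microglia-like and 14.4% in homeostatic-like cells. In DAM-like and T-like cells they recovered 1.04% and 3.06%. The test of states recovered 29.6% and that of the difference of state effects 0%. Small differences were thus mostly missed.

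All 9 genes are named, and of the other pathway genes up to 5 per comparison with the lowest adjusted p. Likeness was ranked by Pearson's r over log2(UMIs per 10,000 + 0.1) among genes of at least 0.2 UMIs per 10,000 in some class, and 1 of the genes so ranked is not reported here. The genes, lists and limits were chosen with earlier results of these data known. Gene positions came from GENCODE (GRCm38) and promoters from RefSeq. Skil had no promoter entry, and those of Smad2, Smad4 and Smad7 were not used here.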

Additional observations from a re-analysis of the deposited data

Results flagged for a closer look

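Of 72 groups of 4 sets (9 genes, 4 kinds of cells and 2 regions), 4 had a set that lay apart from the other 3 by more than Dixon's 95% limit, and chance gives about 1 in 20. Ski in microglia-like cells was at 2.75 UMIs per 10,000 in HPC set 1, against 2.94 to 2.98 in the other HPC sets (ratio 0.834). Skil in homeostatic-like cells was at 3.06 in thalamus set 1, against 2.76 to 2.77 in the others (0.941). Smad7 in DAM-like cells was at 3.28 in HPC set 3, against 1.69 to 1.85 (0.902), a value from 22 cells and 40 Smad7 UMIs. Smad7 in DAM-like cells of the thalamus was at 2.215 in set 4, against 2.09 to 2.10 (0.944), where the whole range is small.

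Fcrls was the gene of the pathway lists whose change between microglial states differed between the regions. The log2 difference of DAM-like minus homeostatic-like cells was higher in the thalamus by 1.06 (SE 0.17, adjusted p = 0.00035, edgeR). Homeostatic-like cells were at 8.43 to 12.4 UMIs per 10,000 in the HPC and 9.25 to 10.8 in the thalamus, and DAM-like cells at 6.14 to 9.61 and 13.4 to 17.8. The call held in 10 of 10 alternatives.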

How the results depend on the processing

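Of the 9 genes, 1 was called between regions in microglia-like cells, against 2 with DESeq2, 2 with a mitochondrial limit of 5%, 3 with replicate blocks and 0 to 1 when a set was left out. In homeostatic-like cells 0 were called, against 1 each with DESeq2, library-size scaling and no filter, 2 with replicate blocks and 0 to 2 when a set was left out. The block changed no other call of these genes between regions. In DAM-like and T-like cells and for the difference of state effects the count was 0 under every alternative run (DESeq2 gave no adjusted p for most of the genes in T-like cells and for the difference). In the state comparison, library-size scaling turned Tgfbr2 to -0.031 and Nrros to -0.10, and the number called lay between 5 and 8 over the alternatives. Among differences not called, the sign changed in 7 values in DAM-like cells, 11 in T-like cells, 6 in homeostatic-like cells, 5 in microglia-like cells and 9 for the difference of state effects.

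Counts over all genes moved more. In microglia-like cells 1820 genes were called, against 4008 with replicate blocks and 795 to 3083 when a set was left out, and library-size scaling changed the split of 1182 higher and 638 lower to 896 and 1110. In homeostatic-like cells 158 were called, against 271 with DESeq2, 395 with no filter, 704 with blocks and 59 to 567 when a set was left out. In DAM-like cells 156 were called, against 335, 276 (blocks) and 47 to 192, and in T-like cells 11, against 17 (DESeq2), 61 (no filter), 54 (blocks) and 3 to 13. The difference of state effects had 47, against 25 to 77 when a set was left out. Between the states 3080 genes were higher and 2708 lower, and 1866 and 5499 with library-size scaling. Among neighbouring classes 0 pairs passed under every alternative run, and in the main run the numbers of sets allowed none to pass. The HPC sets held as few as 22 DAM-like cells. The cause of these shifts was not tested.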
